A study of Mus musculus with 50 samples.

Results

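Csf1r, the receptor that microglia need for survival, and 8 transcription factors of the myeloid lineage were followed in hippocampal microglia of mice raised with or without early-life stress. The factors were Spi1, Runx1, Maf, Mef2a, Mef2c, Cebpa, Cebpb and Cebpd. The 9 genes were chosen by their symbols, out of 53700 genes in the count tables, and all 9 were among the 16696 genes that passed the filter on low counts. The 50 libraries came from male C57BL/6J mice, 1 library per mouse. Control (CTR) dams and pups had standard bedding and nesting material, and early-life stress (ELS) litters had little of both in the days before postnatal day 9 (P9). At P9, 12 CTR and 13 ELS mice were taken untreated. At P200, 7 CTR and 6 ELS mice had received PBS, and 7 CTR and 5 ELS mice had received LPS, a bacterial cell wall component, at 1 mg/kg into the peritoneum, 3 hours before they were killed. Microglia were sorted as live CD11b+ cells with intermediate CD45, and a Percoll gradient preceded the sort in adults only, so age and isolation cannot be told apart in these data. ELS was applied to whole nests. The labels number the mice, as in P9_19.2_ELS, and the first part of that number was treated as the nest, which the sources do not define. On that reading each group held mice of 4 or 5 nests, so mice of a group were not all independent.

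CSF1R is a receptor tyrosine kinase on the surface of microglia and macrophages. It binds the ligands CSF1 and IL-34 and signals through PI3K, ERK and SRC family kinases. PU.1, the protein made from Spi1, opens the enhancers of myeloid genes, Csf1r among them, and in microglia it works together with partner factors. RUNX1 acts with PU.1 when the lineage is set up, MAF and the MEF2 proteins bind enhancers of resident macrophages and microglia, and the C/EBP proteins divide the work between differentiation (C/EBP alpha) and inflammatory and acute-phase responses (C/EBP beta and delta). The tests asked how each gene changed with age, with LPS in adults, and with ELS.

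By their markers these were microglia. All 12 microglia markers, such as Tmem119 and P2ry12, passed the filter, and their summed level was between 48772 and 92263 CPM in every mouse, where CPM is the count of a gene scaled to the library size. Summed over 8 monocyte markers the level was at most 11.3 CPM, with Ly6c1 at 0 counts in 4 of the 6 groups, and over 12 neutrophil markers it was at most 31.9 CPM, with Ly6g at 0 in all 50 mice. Border-associated macrophage markers (8 genes) summed to 525.6 to 1019 CPM at P9 and to 5.60 to 20.9 CPM at P200, and 15 cell division genes to 1765 to 3081 CPM at P9 and to 121 to 218 CPM at P200. Astrocyte markers (8 genes) summed to 129.8 to 438 CPM at P9, 305 to 495 CPM after PBS and 364 to 622 CPM after LPS. Most of this in CTR adults was Slc1a3, a glutamate transporter, which rose with LPS in CTR mice from 356 ± 70.4 to 549.6 ± 46.2 CPM (SD, n = 7 each, log2 fold change 0.63, edgeR adjusted p = 0.00492). Gfap, the astrocyte filament gene, was at 1.28 ± 1.195 CPM in CTR-PBS (n = 7) and 0.108 ± 0.169 CPM in ELS-PBS mice (n = 6, adjusted p = 0.0466). Lymphocyte markers (13 genes, 2 of them tested) summed to 117 to 359 CPM at P9 and to 20.5 to 100.1 CPM at P200. Over all mice, oligodendrocyte markers (10 genes) summed to 59.7 to 215 CPM and endothelial markers (8 genes) to 4.63 to 92.4 CPM. Neuron markers (12 genes) summed to 61.0 to 270.3 CPM at P9 and to 4.96 to 34.4 CPM at P200. The summed microglia markers were themselves lower at P9 (48772 to 62592 CPM) than after PBS (81355 to 92263 CPM) and lower after LPS (58671 to 77588 CPM) than after PBS. The part of these shifts in the differences below was not tested. In bulk libraries, fewer cells of a kind and less RNA per cell cannot be told apart.

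Total counts were between 5152838 and 42231258 per mouse, with a median of 19960409. A few libraries stood apart from their groups. Mouse P9_19.3_ELS had the lowest total and 12482 detected genes, mouse P200_1.1_CTR_PBS had 12854, and the other mice had between 15731 and 21100. A GC tilt was computed for each library, as the median log2 deviation of the tenth of genes with the highest transcript GC content minus that of the tenth with the lowest. It was -2.26 in mouse P9_19.2_ELS and 1.71 in mouse P9_19.3_ELS, and it was between -0.54 and 0.75 in the other 48 libraries. The range of Csf1r and the relations to the tilt are also given without 1 or 2 of these mice. So are Maf with age in ELS mice and Cebpb with LPS in CTR mice. The other group ranges include them. Mice P9_19.2_ELS and P9_19.3_ELS set the lowest or highest P9-ELS values of Spi1, Runx1, Mef2a, Mef2c, Cebpa and Cebpb.

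Both LPS and age were followed by differences in several members, and ELS by none past the threshold. After LPS, 3 of the 9 genes were higher and 3 were lower in CTR mice, where 8.73% of all tested genes were called higher and 6.2% lower (edgeR quasi-likelihood test, adjusted p under 0.05). The same counts, 3 higher and 3 lower, were found in ELS mice, where 7.4% of genes were higher and 4.94% lower. Between P9 and P200, 3 members were higher in CTR and 4 in ELS mice, and none was lower; 17.4% of tested genes were higher and 26.6% lower in CTR mice, and 17.15% and 25.0% in ELS mice. With an absolute log2 fold change above 1 as a further condition, 1 member was called with age in CTR and 3 in ELS mice (26.4% and 26.2% of genes in either direction), and 4 with LPS in each condition (9.62% and 7.86%). None of the 9 differed between ELS and CTR mice at P9 (0.0% of genes called), after PBS at P200 (0.168%) or after LPS (0.0%), and none had an age by condition interaction (0.0299%) or an LPS by condition interaction (0.0%). At an unadjusted p under 0.05, the counts of members for these 5 tests were 0, 1, 1, 3 and 0. Over all 16696 tested genes the counts were 914, 1622, 798, 1712 and 980. The likelihood-ratio test and DESeq2 each called 1 member, Cebpd, between ELS-PBS and CTR-PBS mice and no member in the other 4. The median log2 fold change of the 9 members with LPS was 0.12 in CTR mice against 0.00 over all tested genes, and -0.04 against -0.04 in ELS mice; with age it was 0.06 against -0.09 in CTR and 0.42 against -0.01 in ELS mice.

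**Figure D1:**
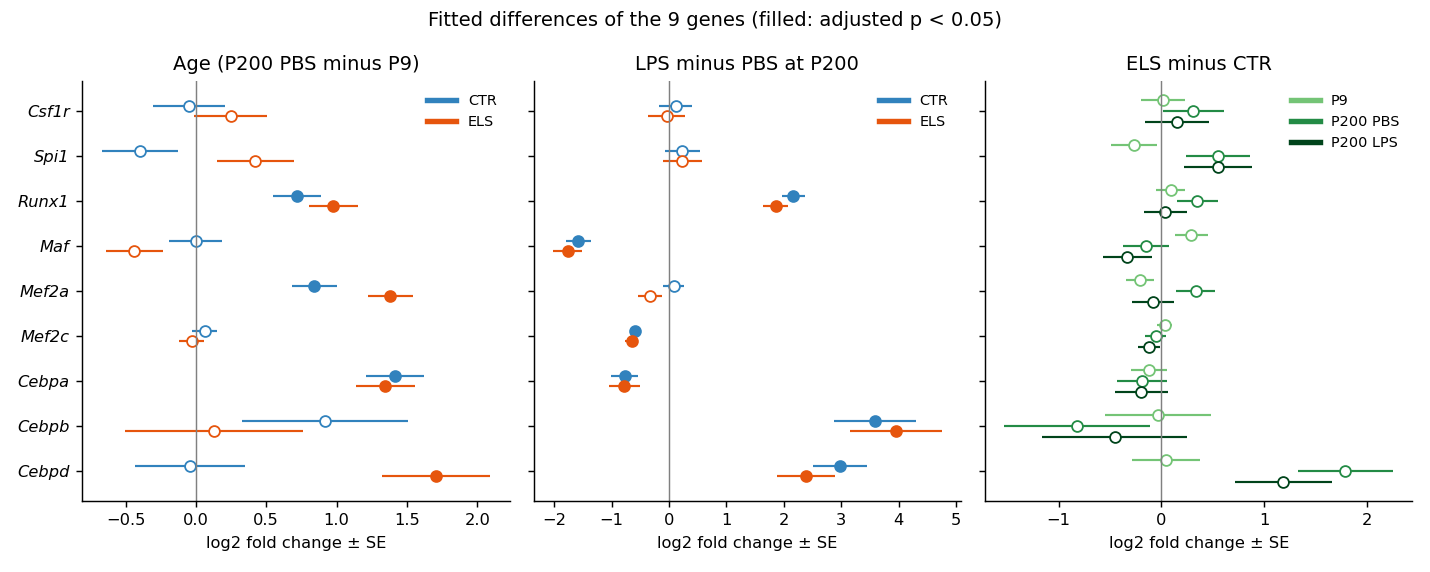
Fitted log2 fold changes of the 9 genes (x axis) with their standard errors for age, LPS and ELS, 1 row per gene; filled points passed an adjusted p of 0.05 and open points did not. With LPS, Runx1, Cebpb and Cebpd lie to the right of 0 and Maf, Mef2c and Cebpa to the left in CTR and in ELS mice, and all points of the ELS minus CTR panel are open.

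Csf1r (chromosome 18, 61229714 to 61266535, plus strand, GRCm39) was the most abundant of the 9 in every group. Per kilobase of exon its mean level was between 1093 and 1353 CPM per kb over the 6 groups, and the next gene, Spi1, was between 80.9 and 139 CPM per kb. In P9-CTR mice Csf1r was between 3533 and 11025 CPM with a median of 8758, and in P9-ELS mice between 630 and 15452 CPM with a median of 8336. In CTR-PBS mice the lowest, median and highest values were 5758, 7949 and 9965 CPM, and in ELS-PBS mice 6581, 9581 and 13537 CPM. In CTR-LPS mice they were 4374, 7403 and 14239 CPM, and the 5 ELS-LPS mice had 11444, 7952, 7932, 10439.6 and 10721 CPM. The 6 groups overlapped throughout, and no comparison of Csf1r passed the test. The fitted log2 differences were between -0.05 and 0.31 with standard errors of 0.21 to 0.32. The lowest P9-ELS value belonged to mouse P9_19.2_ELS, and without it the group ran from 6417 to 15452 CPM.

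The spread of Csf1r within groups moved with the GC tilt of the library. Over the 50 mice, the deviation of log2 CPM from the group mean was correlated (Pearson r = 0.81, Spearman rho = 0.75) with the deviation of the tilt (permutation test, p = 1e-05 for both, the smallest that 100000 permutations can give; adjusted p over the 9 members 9e-05). Without the 2 mice farthest out, P9_19.2_ELS and P9_19.3_ELS, r was 0.69 (permutation p = 1e-05, adjusted 9e-05). For Maf, r was -0.81 and rho -0.40 (permutation p = 3e-05 and 0.00391, adjusted 0.000135 and 0.0117). Without these 2 mice r was -0.30 (permutation p = 0.0391, adjusted 0.0879), so the size of r for Maf rested largely on them. Mef2c (r = -0.55), Cebpa (r = -0.43), Spi1 (r = 0.40) and Mef2a (r = -0.32) also passed with all mice (adjusted permutation p = 0.00078, 0.00628, 0.00635 and 0.0432). Without the 2 mice r was -0.34 for Mef2c, -0.25 for Cebpa and 0.20 for Spi1, and -0.35 for Mef2a, where it was no smaller than with them (adjusted permutation p = 0.0523, 0.166, 0.229 and 0.0523). Runx1, Cebpb and Cebpd had r of 0.04, -0.28 and 0.08 (adjusted permutation p = 0.777, 0.0676 and 0.666). The transcript of Csf1r has 53.32% GC, against a median of 48.7% over the tested genes. Over the members the sign of r went with GC content for some and not for others. Spi1 (58.9%) and Cebpd (51.6%) were, like Csf1r, above the median with a positive r. Maf, Mef2a and Mef2c, between 41.9% and 47.4%, were below it with a negative r. Cebpa (62.6%) and Cebpb (67.2%) were above it with a negative r, and Runx1 (46.2%) was below it with a positive r. The part of GC content was not tested. The gene most like Csf1r over the 50 mice was Plod1 (Pearson r of log2 CPM 0.96), followed by Dnm2 (0.93) and Frmd8 (0.93). These points share the libraries, and with them the tilt.

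**Figure D2:**
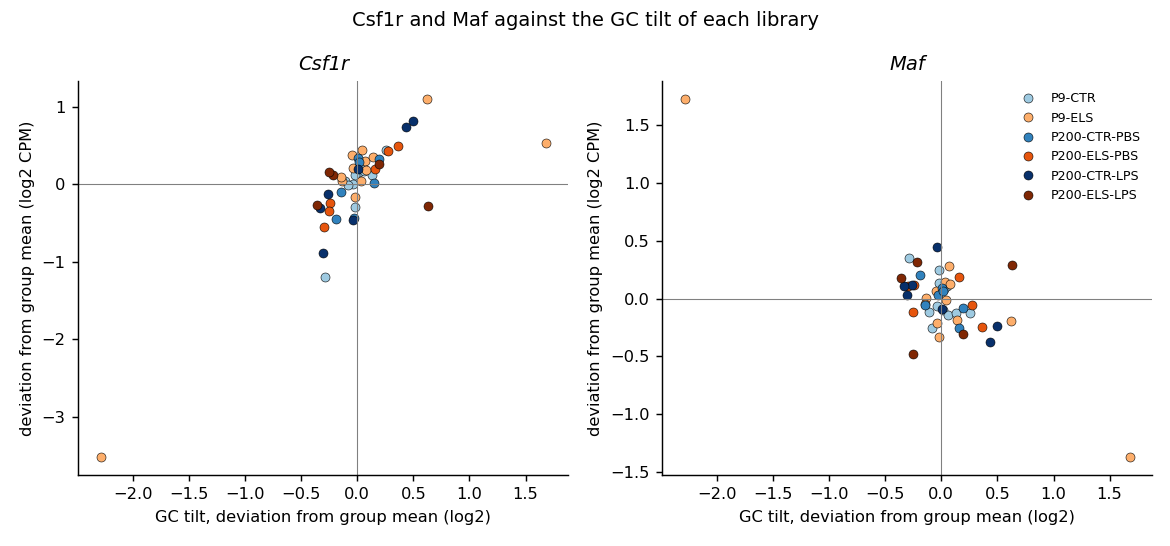
Deviation of Csf1r and Maf from their group means (y axis, log2 CPM) against the deviation of the GC tilt (x axis, log2), 1 point per mouse, coloured by group. Csf1r rises with the tilt within the dense part of the plot too, and the slope of Maf leans on the 2 P9-ELS mice at the left and right ends.

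The ligand Csf1 did change. In CTR mice it went from 52.6 ± 12.0 CPM (mean ± SD, n = 12) at P9 to 25.4 ± 12.3 CPM (n = 7) after PBS, a log2 fold change of -1.05 (edgeR adjusted p = 0.00326), and in ELS mice the change with age was -1.15 (adjusted p = 0.00231). After LPS it was 65.5 ± 40.6 CPM (n = 7) in CTR mice, a log2 fold change of 1.37 (adjusted p = 0.00184), and 64.5 ± 31.9 CPM (n = 5) in ELS mice, a change of 1.31 (adjusted p = 0.0100). Il34, the second ligand, had at most 22 counts in any library and 0 in 33 of the 50 mice, and it was not tested. Of 38 genes of CSF1R signalling, 37 were tested. With LPS, 6 were higher and 1 lower in CTR mice and 7 higher and 1 lower in ELS mice, among them Stat3, a transcription factor downstream of cytokine receptors (log2 fold changes of 2.00 and 1.78), and Fgr, a SRC family kinase (2.77 and 3.07). The LPS shares over all tested genes were 8.73% higher and 6.2% lower in CTR mice, and 7.4% and 4.94% in ELS mice. With age, 9 were higher and 7 lower in CTR and 16 higher and 6 lower in ELS mice, where the shares over all tested genes were 17.4% and 26.6% in CTR and 17.15% and 25.0% in ELS mice. The median log2 fold change of the 37 with age was 0.24 in CTR and 0.25 in ELS mice (all genes -0.09 and -0.01), and with LPS 0.04 and -0.05 (all genes 0.00 and -0.04). Dok2, an adaptor that dampens tyrosine kinase signals, fell with age, with log2 fold changes of -4.78 in CTR and -4.29 in ELS mice. Fyn, another SRC family kinase, also fell with age, with -2.12 and -3.13. With LPS, Dok2 rose by 2.52 in ELS mice (adjusted p = 0.0181 in edgeR). Its level was low there, 0.41 ± 0.56 CPM (SD, n = 6) after PBS and 2.51 ± 0.85 CPM (n = 5) after LPS. No gene of the list had an LPS by condition interaction (lowest edgeR adjusted p = 0.384).

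Other receptors of the lineage were less even than Csf1r. The list held growth factor receptors and the interferon gamma receptor genes Ifngr1 and Ifngr2. Of 10 tested, 3 were higher and 5 lower with age in CTR mice, and the same counts held in ELS mice. The age shares over all tested genes were 17.4% higher and 26.6% lower in CTR mice, and 17.15% and 25.0% in ELS mice. Epor, the erythropoietin receptor, fell with log2 fold changes of -5.72 and -4.30, and Csf2ra, a chain of the GM-CSF receptor, with -1.58 and -1.15. Csf3r, the G-CSF receptor, rose by 1.16 in ELS mice. No receptor of the list had an age by condition interaction (lowest edgeR adjusted p = 0.392). After LPS, Csf2rb, the shared chain of the GM-CSF and IL-3 receptors, rose by 1.49 in CTR and 1.02 in ELS mice (adjusted p = 3.55e-05 and 0.0163).

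Spi1 (chromosome 2, 90912562 to 90946101, plus strand, GRCm39), which encodes PU.1, was the second most abundant member in every group by mean CPM per kb. The length was of all annotated exons merged, 3021 bases for Spi1 and 17132 for Mef2c. Their longest transcripts have 2034 and 7167 bases, so the distance between the levels of these genes depends on the length used. The lowest, median and highest values of Spi1 at P9 were 152, 348 and 438 CPM for CTR and 85.4, 302 and 400.3 CPM for ELS. After PBS they were 71.6, 283 and 383 CPM in CTR and 255, 381 and 413 CPM in ELS mice. After LPS the CTR values were 149.9, 281 and 438 CPM, and the ELS mice had 353, 374, 709, 184 and 484 CPM. All groups overlapped. No comparison of Spi1 passed, with log2 differences of -0.40 (SE 0.27) for age in CTR, 0.42 (SE 0.27) for age in ELS, and 0.23 (SE 0.30 and 0.34) for LPS in both conditions. The age by condition interaction was 0.82 (SE 0.39), with an unadjusted p of 0.0395 in edgeR and an adjusted p of 0.464. ELS-PBS and CTR-PBS mice differed by 0.55 (SE 0.31, adjusted p = 0.611; exact permutation test over 13 mice, unadjusted p = 0.0653). The 2 lowest CTR-PBS values, 71.6 and 113 CPM, belonged to mice P200_8.1_CTR_PBS and P200_1.1_CTR_PBS.

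Of 30 myeloid genes with known PU.1 input, all were tested. With age, 15 were higher and 2 lower in CTR and 13 higher and 6 lower in ELS mice. Among all tested genes, 17.4% were higher and 26.6% lower with age in CTR mice, and 17.15% and 25.0% in ELS mice. Tmem119, a microglial membrane protein, rose by 2.01 and 2.101 on the log2 scale, and Lyz2, the macrophage lysozyme, fell with log2 fold changes of -3.27 and -3.29. With LPS, 4 were higher and 3 lower in CTR, and 8 higher and 3 lower in ELS mice. The LPS shares over all tested genes were 8.73% higher and 6.2% lower in CTR mice, and 7.4% and 4.94% in ELS mice. Cd14, the LPS co-receptor, rose by 2.04 and 2.32, and Tlr4, the receptor that senses LPS, fell by 0.96 in CTR mice (adjusted p = 0.00198). No gene of the list differed between ELS and CTR mice at either age or after LPS. None had an LPS by condition interaction (lowest edgeR adjusted p = 0.384).

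**Figure D3:**
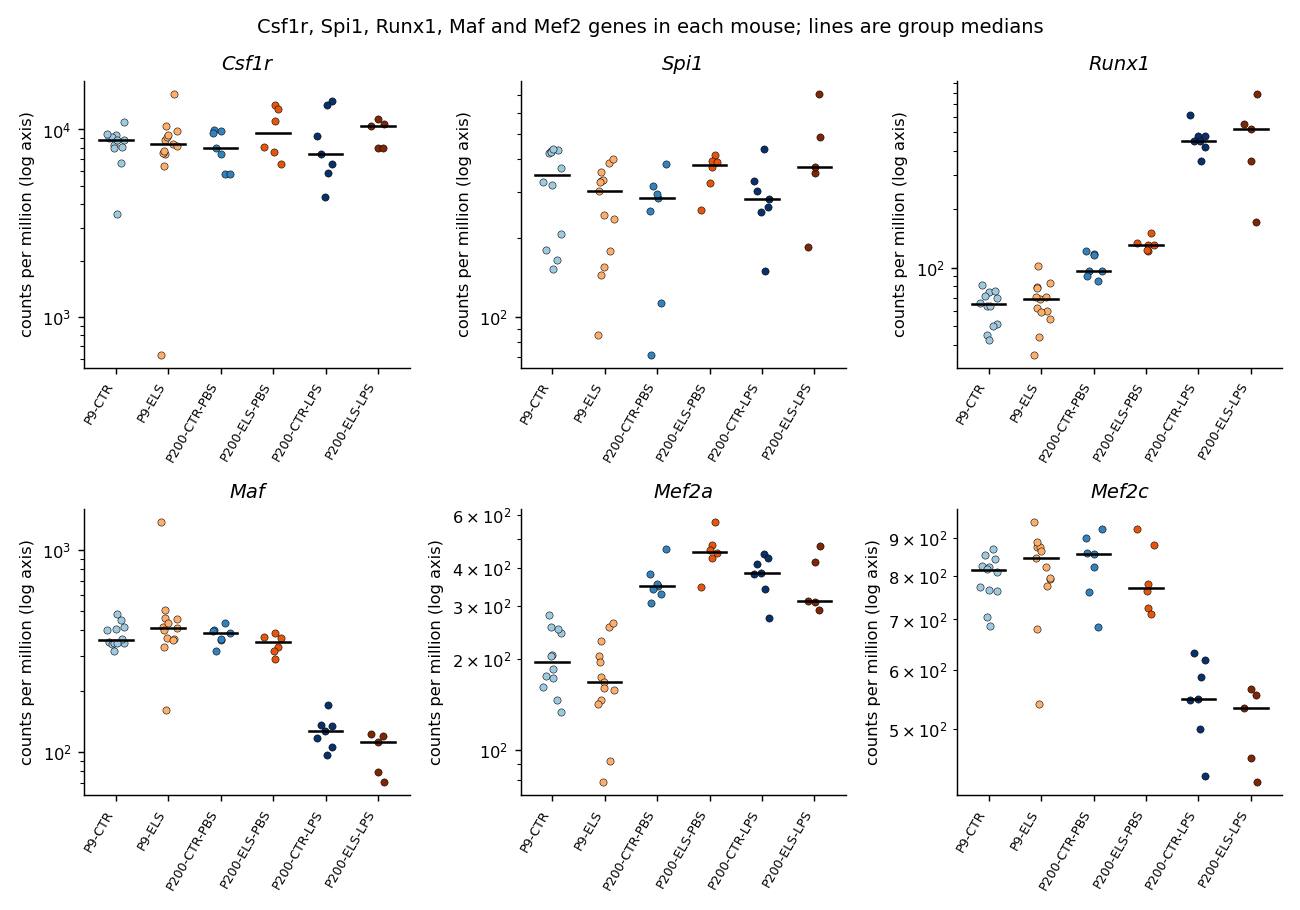
Levels of Csf1r, Spi1, Runx1, Maf, Mef2a and Mef2c in CPM (y axis, log scale) in each of the 50 mice, by group (x axis); lines mark group medians. Runx1 is higher in both LPS groups than in any other mouse, Maf and Mef2c are lower in all LPS mice than in all PBS mice, Mef2a is higher in PBS adults than in pups, and Csf1r and Spi1 overlap across all groups.

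Runx1 (chromosome 16, 92398354 to 92623037, minus strand, GRCm39) encodes a DNA-binding factor of blood and myeloid development. It rose at each step from P9 to P200 and from PBS to LPS. In P9-CTR mice it was between 42.2 and 81.1 CPM with a median of 64.6, and in P9-ELS mice between 35.6 and 102 CPM with a median of 69.0. CTR-PBS mice ran from 85.5 through 96.4 to 122 CPM and ELS-PBS mice from 121 through 131 to 150.1 CPM. The adult groups lay above the P9 groups of the same condition without overlap. CTR-LPS mice ran from 355 through 451 to 615 CPM, and the 5 ELS-LPS mice had 518, 354, 172, 553 and 787 CPM. Every LPS mouse was above every PBS mouse, with the lowest, mouse P200_11.2_ELS_LPS, close to the highest ELS-PBS mouse. This mouse had the highest GC tilt of the adults (0.75) and the highest Spi1 (709 CPM).

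The log2 fold change of Runx1 with LPS was 2.17 (SE 0.20, edgeR adjusted p = 2e-12), a 4.49-fold rise, in CTR mice and 1.86 (SE 0.22, adjusted p = 4.59e-09), or 3.62-fold, in ELS mice. The interaction of LPS and condition was -0.31 (SE 0.29, adjusted p = 0.966). With age Runx1 rose by 0.72 (SE 0.17, adjusted p = 0.000475) in CTR and by 0.98 (SE 0.17, adjusted p = 6.87e-06) in ELS mice. Between ELS-PBS and CTR-PBS mice the difference was 0.35 (SE 0.20, adjusted p = 0.615), and 5 of 6 ELS-PBS mice were above all CTR-PBS mice (exact permutation test over 13 mice, unadjusted p = 0.00524, where the smallest possible p is 0.00117). This exact p is 1 of 9 computed and is not adjusted. The genes most like Runx1 over the 50 mice were C5ar1 (Pearson r of log2 CPM 0.96), Btg2 (0.96) and Ptpn1 (0.96).

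Runx1 has 2 annotated promoters, and the counts per gene do not separate their transcripts. Both are shown because Runx1 had the lowest adjusted p of the 9 genes for LPS in both conditions, with 300 bases each on the minus strand (RefSeq, GRCm38.p6, 250 bases before the start site to 50 after it). Capitals mark matches, on either strand, to the 9 patterns searched. The distal promoter at chr16:92826025-92826324 holds the RUNX pattern TGTGGT in 2 places, both read as its complement and both after the start site, and the proximal promoter at chr16:92697280-92697579 holds the PU.1 core GAGGAA, also read as its complement. Of 32851 promoters of this length, 16.8% hold the RUNX pattern and 28.3% the PU.1 core.
Runx1 distal promoter: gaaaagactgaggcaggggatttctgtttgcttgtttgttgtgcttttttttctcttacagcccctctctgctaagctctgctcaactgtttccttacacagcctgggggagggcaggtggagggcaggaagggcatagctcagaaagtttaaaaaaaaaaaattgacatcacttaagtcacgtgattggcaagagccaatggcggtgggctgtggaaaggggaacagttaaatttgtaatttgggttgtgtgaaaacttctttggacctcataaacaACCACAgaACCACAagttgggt
Runx1 proximal promoter: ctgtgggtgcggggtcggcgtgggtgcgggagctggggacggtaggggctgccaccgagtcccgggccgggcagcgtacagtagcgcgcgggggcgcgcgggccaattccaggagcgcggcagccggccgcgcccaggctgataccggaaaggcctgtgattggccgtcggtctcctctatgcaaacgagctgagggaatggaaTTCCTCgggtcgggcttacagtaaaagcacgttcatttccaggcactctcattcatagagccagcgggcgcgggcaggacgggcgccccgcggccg
The distal promoter has 45.0% GC and the proximal one 69.0%, against a median of 52.7% over all promoters. A match is a stretch of letters and not evidence of binding.

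The partner of the RUNX proteins, Cbfb, fell with age by 0.59 on the log2 scale in CTR (adjusted p = 0.0400) and by 0.83 in ELS mice (adjusted p = 0.00612). Cbfb is in a list of 17 paralogues and dimer partners of the factors, of which 10 were tested. With LPS, 3 were higher and 1 lower in CTR and 2 higher and 1 lower in ELS mice, and with age 3 were higher and 3 lower in CTR and 4 higher and 1 lower in ELS mice. Among all tested genes, 8.73% were higher and 6.2% lower with LPS in CTR mice, and 7.4% and 4.94% in ELS mice. The shares with age were 17.4% and 26.6% in CTR mice, and 17.15% and 25.0% in ELS mice.

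Maf (chromosome 8, 116409632 to 116434579, minus strand, GRCm39), a large MAF factor of resident macrophages, fell with LPS. CTR-PBS mice had between 317 and 435 CPM with a median of 387, and ELS-PBS mice between 287 and 388 with a median of 348. CTR-LPS mice had between 96.4 and 170.3 CPM with a median of 127, and the 5 ELS-LPS mice had 79.3, 111, 120.2, 122 and 70.7 CPM. No LPS mouse reached the lowest PBS mouse. The log2 fold change was -1.58 (SE 0.22, adjusted p = 1.78e-07) in CTR and -1.77 (SE 0.25, adjusted p = 5.37e-07) in ELS mice, so that the level fell to 0.334 and 0.294 of the PBS level.

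At P9, Maf was between 317 and 482 CPM in CTR mice with a median of 356. In P9-ELS mice it was between 161 and 1379 CPM with a median of 411. The extremes of the ELS group were mice P9_19.3_ELS and P9_19.2_ELS, the libraries with the most positive and the most negative tilt. Age did not pass in CTR mice (log2 fold change -0.00, SE 0.19) or in ELS mice (-0.44, SE 0.20, adjusted p = 0.0750). In ELS mice the value was -0.18 (adjusted p = 0.285) without mouse P9_19.2_ELS and -0.52 (adjusted p = 0.0194) without mouse P9_19.3_ELS, and the call depended on these 2 mice.

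Mafk, a small MAF protein, rose with LPS by 2.13 in CTR and 1.79 in ELS mice. The genes most like Maf over the 50 mice were Sox4 (Pearson r 0.92), Mef2c (0.91) and Cbfa2t3 (0.91).

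The 2 MEF2 genes behaved differently. Mef2c (chromosome 13, 83652064 to 83815555, plus strand, GRCm39), the factor that restrains inflammatory activation of microglia, did not pass with age and fell with LPS. CTR pups had between 687 and 868 CPM, median 814, and ELS pups between 541 and 945 CPM, median 846. After PBS it was between 684 and 924 CPM with a median of 857 in CTR and between 712 and 924 CPM with a median of 772 in ELS mice. With LPS the CTR mice had between 433 and 632 CPM with a median of 549, and the ELS mice had 458, 565, 555, 534 and 425 CPM. LPS and PBS mice did not overlap in either condition, and the fold was small: the log2 fold change was -0.59 (SE 0.10, adjusted p = 7.35e-06) in CTR and -0.65 (SE 0.11, adjusted p = 1.63e-05) in ELS mice. With age it was 0.06 (SE 0.09) in CTR and -0.03 (SE 0.09) in ELS mice.

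Mef2a (chromosome 7, 66880911 to 67022606, minus strand, GRCm39) rose with age and did not pass with LPS. P9-CTR mice had between 134 and 279 CPM with a median of 196, and CTR-PBS mice between 307 and 463 CPM with a median of 349. P9-ELS mice had between 78.3 and 263 CPM with a median of 168, and ELS-PBS mice between 346 and 569.8 CPM with a median of 454. Adults were above pups without overlap in both conditions. The log2 fold change was 0.84 (SE 0.16, adjusted p = 2.44e-05) in CTR and 1.38 (SE 0.16, adjusted p = 7.44e-10) in ELS mice. The difference between these, an interaction of 0.54 (SE 0.23), had an unadjusted p of 0.0245 in edgeR and an adjusted p of 0.417. With LPS, Mef2a changed by 0.08 (SE 0.18) in CTR and by -0.34 (SE 0.21, adjusted p = 0.334) in ELS mice. Per kb of exon, Mef2c stood at 46.4 and Mef2a at 13.0 CPM per kb in P9-CTR mice, and at 32.2 and 24.6 CPM per kb in CTR-LPS mice.

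With LPS, of 30 tested genes in a list of other myeloid and microglial transcription factors, 10 were higher and 6 lower in CTR and 7 higher and 7 lower in ELS mice. The LPS shares over all tested genes were 8.73% higher and 6.2% lower in CTR mice, and 7.4% and 4.94% in ELS mice. Egr1 and Egr2, immediate early zinc finger factors, rose by 5.51 and 3.86 on the log2 scale in CTR mice, and Id2, an inhibitor of basic helix-loop-helix factors, by 3.56. Sall1, a defining factor of microglial identity, dropped from 302 ± 58.4 CPM (SD, n = 7) to 91.1 ± 14.7 CPM (n = 7) when CTR mice had LPS (log2 fold change -1.73, adjusted p = 1.17e-12), and fell by 2.01 in ELS mice. Irf8, named after its values were seen, is the partner of PU.1 in myeloid cells. It had log2 fold changes of -0.01 and 0.14 with LPS and did not pass, and it rose with age by 0.92 and 0.99 (adjusted p = 6.62e-07 and 2.47e-07). With age, 15 of the 30 were higher and 1 lower in CTR and 16 higher and 1 lower in ELS mice. The age shares over all tested genes were 17.4% higher and 26.6% lower in CTR mice, and 17.15% and 25.0% in ELS mice.

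The C/EBP genes moved apart from each other. Cebpa (chromosome 7, 34818718 to 34821353, plus strand, GRCm39), a single-exon gene whose protein drives myeloid differentiation, rose with age and fell with LPS. Its lowest, median and highest values at P9 were 10.4, 13.2 and 19.8 CPM for CTR and 5.198, 12.5 and 21.4 CPM for ELS. They were 23.2, 39.4 and 53.8 CPM in CTR-PBS and 21.6, 28.9 and 56.0 CPM in ELS-PBS mice. Adults and pups did not overlap, and the log2 fold change with age was 1.41 (SE 0.20, adjusted p = 1.35e-07) in CTR and 1.35 (SE 0.21, adjusted p = 6.37e-07) in ELS mice. With LPS the CTR mice ran from 12.6 through 22.7 to 34.8 CPM and the ELS mice had 12.4, 21.5, 31.3, 18.6 and 12.6 CPM, so the groups overlapped those after PBS. The log2 fold change was -0.77 (SE 0.24, adjusted p = 0.0187) in CTR and -0.78 (SE 0.27, adjusted p = 0.0483) in ELS mice. The fold was much the same over all 12 alternative settings, between -0.78 and -0.69 in CTR and between -0.91 and -0.73 in ELS mice, and the adjusted p moved across the threshold. In CTR mice it did not pass with counts summed per nest (-0.69, adjusted p = 0.0874) or with the GC trend of each mouse taken out (-0.72, adjusted p = 0.201). In ELS mice it did not pass in 5 of the 12: with the GC trend taken out (-0.91, adjusted p = 0.161), with no filter on low counts (adjusted p = 0.111), with the filter on zeros (adjusted p = 0.0507), with only the groups compared (adjusted p = 0.0758) and with the P200 mice alone (adjusted p = 0.0902). In CTR mice the call was lost without mouse P200_8.2_CTR_LPS or mouse P200_15.1_CTR_PBS (adjusted p of up to 0.0573), and in ELS mice it was lost in 7 of the 11 fits that each left out 1 mouse (adjusted p of up to 0.195, without mouse P200_20.2_ELS_PBS).

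Cebpb (chromosome 2, 167530835 to 167532338, plus strand, GRCm39), also a single-exon gene, encodes a factor that LPS and cytokines induce in macrophages. It was near the floor of detection without LPS. At P9 the counts per mouse were between 1 and 25 in CTR and between 0 and 52 in ELS mice, with 2 ELS mice at 0. After PBS they were between 8 and 57 in CTR mice, or 0.444, 0.570 and 2.90 CPM for the lowest, median and highest mouse, and between 6 and 24 in ELS mice, or 0.241 CPM at the lowest and 0.854 CPM at the highest. After LPS it was between 6.67 and 23.8 CPM with a median of 10.1 in CTR mice and at 5.90, 8.07, 2.97, 13.4 and 11.7 CPM in ELS mice. No LPS mouse fell within the PBS group of its condition. The log2 fold change was 3.59 (SE 0.71, adjusted p = 0.000167), or 12.0-fold, in CTR and 3.95 (SE 0.80, adjusted p = 0.000283), or 15.4-fold, in ELS mice. The highest CTR-PBS mouse was P200_1.1_CTR_PBS, and without it the log2 fold change in CTR mice was 4.18 (adjusted p = 3.29e-05).

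Cebpd (chromosome 16, 15705150 to 15708895, plus strand, GRCm39), another inducible C/EBP, rose with LPS and had the largest fitted difference of the 9 between PBS mice of the 2 conditions. Its lowest, median and highest values were 5.85, 10.8 and 28.7 CPM for CTR pups, 5.17, 9.24 and 27.9 CPM for ELS pups and 5.95, 12.4 and 22.6 CPM for CTR adults after PBS. The ELS-PBS mice had a lowest value of 9.77, a median of 36.7 and a highest value of 97.3 CPM, and 5 of 6 were above all CTR-PBS mice. CTR-LPS mice ran from 39.7 through 92.8 to 187 CPM, and the ELS-LPS mice had 111, 185, 136, 35.7 and 646 CPM. LPS and PBS mice did not overlap in CTR and overlapped in ELS mice. The log2 fold change with LPS was 2.99 (SE 0.47, adjusted p = 2.65e-06), or 7.93-fold, in CTR and 2.38 (SE 0.51, adjusted p = 0.000529), or 5.22-fold, in ELS mice. Without mouse P200_20.1_ELS_LPS the latter was 1.46 (adjusted p = 0.0387).

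Between ELS-PBS and CTR-PBS mice Cebpd differed by 1.79 on the log2 scale (SE 0.46), or 3.46-fold, with an edgeR adjusted p of 0.0740, just short of the threshold. The exact permutation test over the 13 mice gave an unadjusted p of 0.00991. That test treated the mice as independent, although some share a nest number. The adjusted p was 0.0168 in the likelihood-ratio test and 0.0170 in DESeq2, and it was 0.283 without mouse P200_20.2_ELS_PBS, the highest of its group, where the difference was 1.37. Of 11 alternative settings of the edgeR and DESeq2 fits, 8 did not pass, and the adjusted p was between 0.0168 and 0.217 over the 11. With age, Cebpd changed by -0.04 (SE 0.39, adjusted p = 0.944) in CTR and rose by 1.71 (SE 0.39, adjusted p = 0.000319) in ELS mice. The age by condition interaction was 1.75 (SE 0.57), with an unadjusted p of 0.00321 in edgeR and an adjusted p of 0.267, so the difference between the 2 age changes did not pass. These comparisons share the 6 ELS-PBS and the 7 CTR-PBS mice. After LPS, ELS mice were higher than CTR mice by 1.19 (SE 0.47, unadjusted p in edgeR 0.0150, adjusted p = 0.862), which did not pass.

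**Figure D4:**
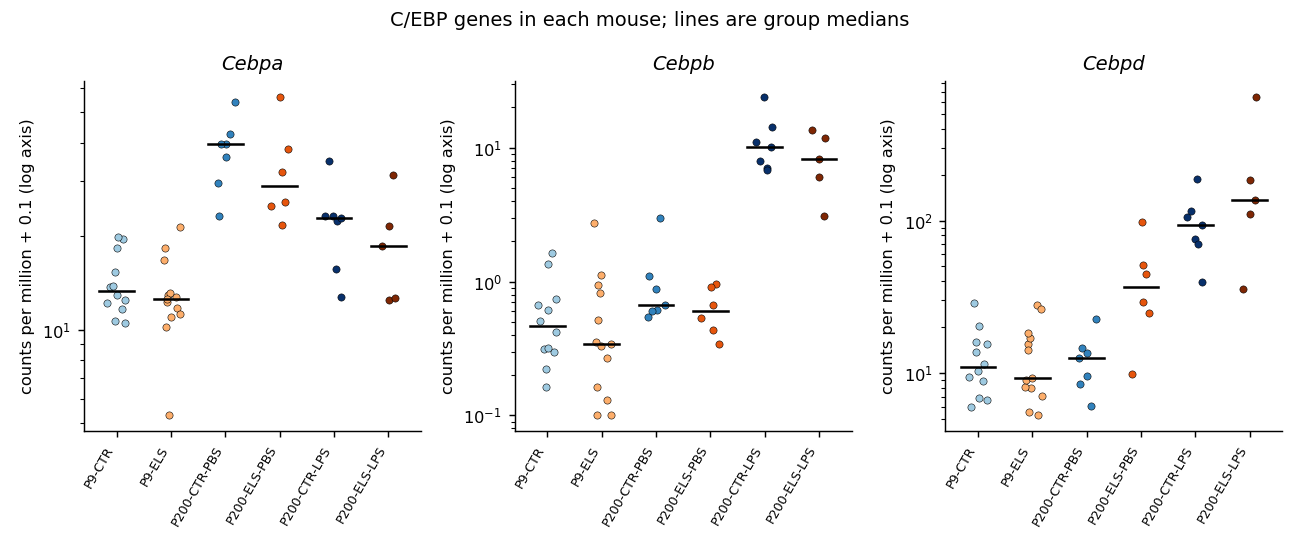
Levels of Cebpa, Cebpb and Cebpd in CPM plus 0.1 (y axis, log scale) in each of the 50 mice, by group (x axis); lines mark group medians. Cebpa is higher in PBS adults than in pups, Cebpb stays at or under 2.90 CPM without LPS, and 5 of 6 ELS-PBS mice lie above all CTR-PBS mice for Cebpd.

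The make-up of the 3 C/EBP transcripts turned over with LPS. Per kb of exon, Cebpa made up 78.3% ± 3.42 (SD, n = 7) of the 3 in CTR-PBS and 20.5% ± 5.68 (n = 7) in CTR-LPS mice, and 55.05% ± 15.6 (n = 6) in ELS-PBS and 15.8% ± 9.96 (n = 5) in ELS-LPS mice. Cebpd made up 18.07% ± 5.204 in CTR-PBS, 59.6% ± 13.3 in CTR-LPS, 43.3% ± 15.7 in ELS-PBS and 71.8% ± 20.7 in ELS-LPS mice. Cebpb made up at most 9.83% of the 3 in any PBS mouse and reached 38.2% in 1 CTR-LPS mouse. At P9, Cebpa made up 59.9% ± 10.3 (n = 12) in CTR and 57.5% ± 14.1 (n = 13) in ELS mice. The highest Cebpa share in an LPS mouse was 27.6% and the lowest in a PBS mouse 37.1%.

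**Figure D5:**
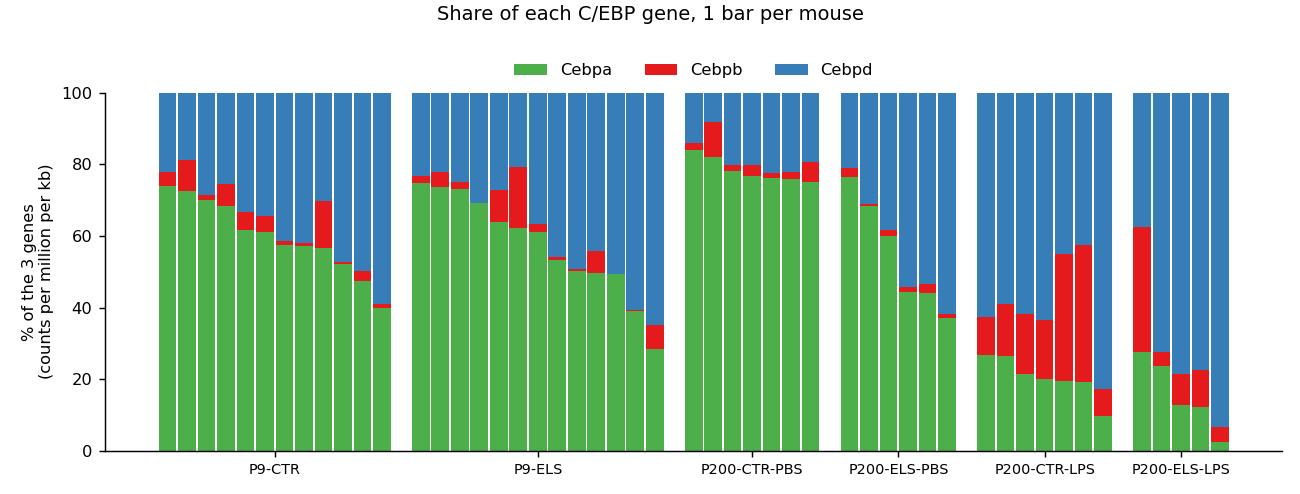
Share of Cebpa, Cebpb and Cebpd in their summed level per kb of exon (y axis, percent), 1 stacked bar per mouse, grouped along the x axis and sorted by the Cebpa share within each group. Cebpa takes up most of each CTR-PBS bar and at most 27.6% of any LPS bar.

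The promoters of Cebpa and Cebpb are shown because these 2 genes moved in opposite directions with LPS (RefSeq, GRCm38.p6, plus strand, 250 bases before the start site to 50 after it, capitals as for Runx1). The patterns were searched on both strands. TGACG, the CREB/ATF half-site, is in 20.8% of all promoters. TGANTCA, the AP-1 site, is in 7.81%, TTNNGCAA, the C/EBP site, in 10.8%, and TGCTGAC, the MAF half-site, in 4.67%. TATAAA, the TATA box, is in 13.6%. The PU.1 and RUNX patterns were those given for Runx1, the MEF2 site is in 3.69% and the NF-kB consensus in 8.46% of promoters. In the sequences shown no match overlapped another.
Cebpb promoter, chr2:167688665-167688964: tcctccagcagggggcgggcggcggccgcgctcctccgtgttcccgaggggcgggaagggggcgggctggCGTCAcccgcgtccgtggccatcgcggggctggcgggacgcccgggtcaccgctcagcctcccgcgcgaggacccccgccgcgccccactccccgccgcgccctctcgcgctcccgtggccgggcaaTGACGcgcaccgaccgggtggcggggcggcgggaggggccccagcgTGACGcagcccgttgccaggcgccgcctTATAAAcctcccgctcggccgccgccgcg
Cebpa promoter, chr7:35119043-35119342: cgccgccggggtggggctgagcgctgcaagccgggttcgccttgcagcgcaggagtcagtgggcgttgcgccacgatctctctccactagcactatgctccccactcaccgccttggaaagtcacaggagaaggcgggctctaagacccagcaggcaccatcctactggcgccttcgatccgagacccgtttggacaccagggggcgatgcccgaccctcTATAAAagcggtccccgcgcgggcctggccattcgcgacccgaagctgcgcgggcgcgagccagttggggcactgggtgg
The Cebpb promoter holds TGACG in 3 places and TATAAA in 1, and the Cebpa promoter holds TATAAA in 1 place and none of the other 8 patterns. The TATAAA of Cebpb began at position 21, after the annotated start site, and that of Cebpa at -30, before it. GC content is 80.7% for Cebpb and 67.3% for Cebpa. Promoters of 5 of the 9 members were in the table, with 8 promoters in all. That of Mef2a holds the PU.1 core in 2 places and the MEF2 site in 1. Of the 3 promoters of Mef2c, 2 hold the PU.1 core, 2 the TATA box and 1 the AP-1 site. Promoters of Csf1r, Spi1, Maf and Cebpd were not used here.

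Most tested genes linked to C/EBP factors in inflammation rose with LPS. Of 23 in the list, 13 were tested, and 10 were higher in CTR and 11 in ELS mice, with none lower. Among all tested genes, 8.73% were higher and 6.2% lower in CTR mice, and 7.4% and 4.94% in ELS mice. The filter on low counts took all 50 mice together, so a gene near 0 without LPS could be tested through the LPS mice alone. The counts and medians of these 13 genes with LPS are therefore partly set by the filter. Il1b went from 1.73 ± 1.66 CPM (SD, n = 7) to 406 ± 209 CPM (n = 7) with LPS in CTR mice, and Tnf from 2.84 ± 1.62 to 259 ± 119.6 CPM. The median log2 fold change of the 13 was 4.39 in CTR and 6.40 in ELS mice, against 0.00 and -0.04 over all tested genes. Of 14 tested immediate early and dissociation genes, 11 were higher with LPS in CTR and 10 in ELS mice, and their summed level was 585 to 899.8 CPM in PBS mice and 6153 to 11820 CPM in LPS mice. The genes most like Cebpd over the 50 mice included Ier2 of that list (Pearson r 0.84), after Pgs1 (0.87) and Tiparp (0.85), and those most like Cebpb were Gadd45g (0.91), Nupr1 (0.90) and Ugcg (0.90). The part of sorting and dissociation in these values was not tested. Between ELS-PBS and CTR-PBS mice, none of the 13 C/EBP-linked genes and none of the 14 immediate early genes passed. At an unadjusted p under 0.05 there were 1 of the 13 and 4 of the 14, against 1622 of all 16696 genes, and the median log2 difference was 0.00 for the 13, 0.13 for the 14 and 0.01 over all genes. The part of the immediate early genes in the difference of Cebpd was not tested.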

How the data were processed

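RNA was measured in 50 libraries, 1 per mouse, grouped by the age, condition and treatment in the labels. The authors prepared them from sorted cells with a low-input poly-A kit, demultiplexed with bcl2fastq 2.20, trimmed with cutadapt 2.10, aligned with STAR to GRCm39 and counted reads per gene with HTSeq 0.11.0, and deposited raw counts, 1 table per mouse. The annotation release and strand setting are not given in the sources used here, so reads of overlapping genes on opposite strands may not be told apart. Totals were 5152838 to 42231258 counts per mouse.

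A gene was tested if over 2 mice had 1 CPM or more of it (16696 of 53700 genes). All 6 groups were fitted together with edgeR 4.0.16 (R 4.3.3, TMM, quasi-likelihood test, prior count 2), with 7 comparisons and 2 interactions, and Benjamini-Hochberg adjustment over all tested genes at 0.05. P-values measure the spread between mice, which share nests. No replicate pair differed by as little as sampling noise (lowest chi-square per gene 14.9). On simulated counts for LPS in CTR mice (16696 genes), 170 of 200 genes changed by 1.5 on the log2 scale were recovered, with 6 false calls. DESeq2 1.42.0, other filters, sums per nest and left-out mice were alternatives. Exact permutation tests were two-sided.

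All 9 members were named in each comparison, with up to 4 called genes per list with the largest change (mean log2 CPM of at least 1), and the 3 genes most like each member (mean of at least 3). The members and lists were chosen with earlier results of these data known. Gene positions and exon lengths came from GENCODE on GRCm39, and promoters from RefSeq on GRCm38.p6. Levels per kb used the merged exons of all annotated transcripts of a gene, which can be longer than any 1 transcript.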

Additional observations from a re-analysis of the deposited data

Results flagged for a closer look

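Of 36 sets of values (9 genes in the 4 groups of 5 to 7 mice and in no larger group), 1 had a mouse far from the others, where chance gives about 1 in 20. Cebpb in mouse P200_1.1_CTR_PBS was 2.90 CPM, the nearest mouse of its group was 0.993 CPM and the median of the others 0.543 CPM. On the scale of log2 CPM, on which the sets were examined, the gap was 0.590 of the range of the group, against a critical value of 0.568. The same library had 12854 detected genes, the lowest of the adults.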

How the results depend on the processing

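No result changed direction. Requiring an absolute log2 fold change above 1 left 1 member called with age in CTR mice in place of 3. Between ELS-PBS and CTR-PBS mice, 0 members passed. There 1 passed with the likelihood-ratio test, 1 with DESeq2 and 1 when the 2 pups lowest in detected genes were left out. In the exact permutation test, 3 members had an unadjusted p under 0.05. That test was run on the members only, so no share over all genes stands beside this count. Leaving out 1 mouse at a time gave 0 to 1 members between ELS-PBS and CTR-PBS mice (1 without mouse P200_15.1_CTR_PBS or mouse P200_17.2_ELS_PBS). It gave 3 to 3 for age in CTR, 4 to 5 for age in ELS, and 5 to 6 for LPS in each condition. Maf with age in ELS mice passed with the filter on zeros (-0.50, adjusted p = 0.0437) and with sums per nest (-0.60, adjusted p = 0.0162). Over all genes, 28 were called between ELS-PBS and CTR-PBS mice, against 215 with the likelihood-ratio test, 177 with DESeq2, 6 with DESeq2 size factors and 0 with these groups alone. Cebpb had too few counts to be tested in some fits of only the groups compared.

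The nest numbers were not shown to pair the mice: over 10 nests, same-nest correlations ran from -0.14 to 0.19, 4 were over 0.1 and 3 were highest with their own nest. With the nest as a replicate block, the LPS change of Cebpd was 3.09 in CTR and 1.84 in ELS mice (without the block 2.99 and 2.38), and all 6 members called with LPS passed in both conditions. With counts summed per nest, 5 members passed with LPS in CTR mice, Cebpa being the one lost (adjusted p = 0.0874), and 6 in ELS mice. Counts of 0 to 57 per mouse limit what can be said of Cebpb without LPS.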
